A study of Mus musculus with 22 samples.

Results

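The 32 genes described here encode the enzymes and regulators of sterol and fatty acid synthesis, and they were followed through single-cell RNA sequencing of mouse esophageal epithelium. They were chosen by name for their place in the pathway, as 32 of the 17541 genes in the deposited counts, and all 32 were found there. By role, 7 act in the mevalonate steps, 11 lead from squalene to cholesterol, 4 are regulators or a sterol carrier, 3 supply acetyl-CoA or NADPH, and 7 make, elongate or desaturate fatty acids. The epithelium was peeled from the esophagi of 13 C57BL6 mice and profiled by inDrop, a droplet method that tags each transcript with a unique molecular identifier (UMI). There were 6 untreated control mice, of which 3 were young (3 to 4 months) and 3 old (18 to 20 months), with 2 libraries from each mouse. The 4 mice with eosinophilic esophagitis (EoE) were 2 young (6 to 8 weeks) and 2 old (19 to 20 months), with 1 library each. They had MC903 and ovalbumin (OVA) put on the ears for 12 days, then OVA by gavage and in drinking water from day 15 to day 32. The 3 mice with esophageal squamous cell carcinoma (ESCC), of 8 to 10 months and with 2 libraries each, drank 4-nitroquinoline 1-oxide (4NQO) for 16 weeks and then plain water for 8 weeks. In both disease models the whole peeled epithelium was used, so that an ESCC library held tumor and surrounding epithelium alike. No group shared a treatment with the controls, and age was not matched between groups.

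Cholesterol is built from acetyl-CoA through mevalonate, farnesyl diphosphate and squalene, and fatty acids are built from the same acetyl-CoA with NADPH as the reductant. Both routes are under the SREBP transcription factors, encoded by Srebf1 and Srebf2, which Insig proteins hold in the endoplasmic reticulum when sterols are plentiful. In stratified squamous epithelia, cells leave the Krt5-positive basal layer, move outward and differentiate, and the outer layers are known for the lipids that they deposit as a barrier.

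The cells used were those within the limits of the study on genes (250 to 3500) and UMIs (100 to 9500) per cell, without cells called non-epithelial. They were 1493 control cells with 1744511 UMIs (111043 to 427752 per mouse), 1472 ESCC cells with 5080711 UMIs (1240388 to 2103543 per mouse) and 143 EoE cells with 97975 UMIs (6245 to 41909 per mouse). Of the 1500 deposited EoE cells, 1356 lay outside those limits, and EoE mouse 11 kept 11 cells. Over the EoE group, 3 UMIs corresponded to 30.6 CPM, the UMIs of a gene scaled to a fixed total, against 1.72 in control and 0.590 in ESCC. The libraries of one mouse shared 239 cell barcodes, held by 15.9% of control and ESCC cells. The median correlation over genes between both copies of such a barcode was 0.791, against 0.436 for different barcodes, so the counts of the 32 genes called were also made with each shared barcode kept once. A further 43 barcodes occurred in more than 1 mouse. The epithelial markers were present in every group. Of the eosinophil and mast cell markers, 5 of 8 were in the counts (Ccr3, Cpa3, Mcpt4, Tpsb2 and Cma1). These were at 0 in all groups, EoE included, while Epx, Prg2 and Siglecf were not in the counts and could not be read.

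Together the 32 genes took 0.306% ± 0.0659 (SD, n = 6 mice) of the UMIs in control, 0.530% ± 0.0664 (n = 4) in EoE and 0.196% ± 0.0158 (n = 3) in ESCC. The control mice lay between 0.200% and 0.377%, the ESCC mice between 0.180% and 0.211% and the EoE mice between 0.448% and 0.608%. Among these cells EoE did not overlap either of the other groups, and ESCC overlapped only the lowest control mouse, an old mouse with 70 cells. The 11 genes from squalene to cholesterol held the largest portion, at 0.118% ± 0.0322 in control, 0.215% ± 0.0274 in EoE and 0.0654% ± 0.00805 in ESCC. The regulators stood at 0.0372% ± 0.00565 in control, 0.0898% ± 0.0259 in EoE and 0.0275% ± 0.000557 in ESCC. With all deposited EoE cells in place of the 143, the summed share in EoE was 0.360% ± 0.0833, and mice 11 (0.296%) and 12 (0.295%) then lay inside the control range of 0.199% to 0.375%, so that the groups overlapped. The share was 0.305% in control and 0.197% in ESCC with each shared barcode kept once. No p-value is given for these sums.

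**Figure D1:**
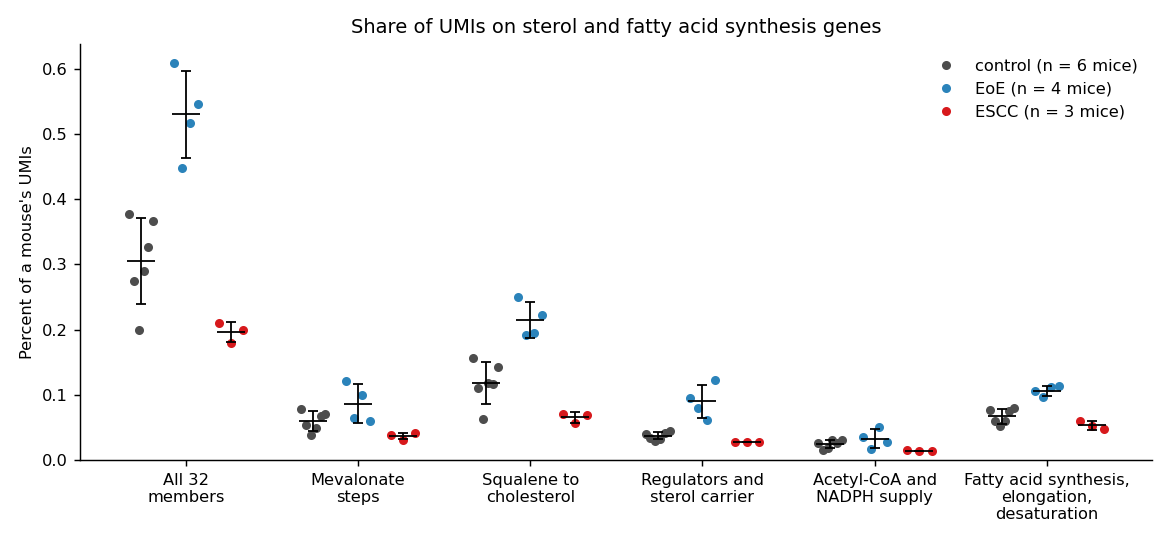
Percent of a mouse's UMIs that fell on the 32 genes and on each of their 5 role groups (y axis), by condition; points are mice, horizontal marks the mean and bars 1 SD. The 4 EoE mice (0.448% to 0.608% over all 32 genes) sit above the control mice (0.200% to 0.377%), and the ESCC mice (0.180% to 0.211%) sit at the lower end.

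Where the genes were used along differentiation was asked next. Each control and ESCC cell was placed by D, the log10 of Krtdap minus that of Krt5, after scaling to 1000 UMIs per cell and adding 1. Krt5 encodes the basal keratin, and Krtdap a protein of differentiating keratinocytes. Cells with D below -0.3 were called the Krt5 side, those above 0.3 the Krtdap side, and those between the strip. In control mice 61.7% ± 11.3 (SD, n = 6) of cells were on the Krt5 side and 29.4% ± 8.66 on the Krtdap side, against 83.2% ± 3.97 and 6.83% ± 6.00 in ESCC (n = 3). Of the basal markers other than Krt5, 6 of 7 were higher on the Krt5 side in control with no overlap between the mice's sums, and 6 of the 9 suprabasal and superficial markers other than Krtdap were higher on the Krtdap side. In ESCC these counts were 5 of 7 and 7 of 9, and 1 suprabasal marker was higher on the Krt5 side.

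The summed share of the 32 genes was 0.136% ± 0.0299 on the Krt5 side and 0.549% ± 0.0721 on the Krtdap side of the control epithelium (SD, n = 6). In ESCC it was 0.158% ± 0.0285 and 0.415% ± 0.100 (n = 3). In no mouse of either group did the Krtdap side reach down to the Krt5 side, and the strip lay between, at 0.323% ± 0.0908 in control and 0.275% ± 0.0381 in ESCC. Over 5 finer bins of D, the control means were 0.124%, 0.168%, 0.323%, 0.392% and 0.594% from the Krt5 end to the Krtdap end, and the ESCC means 0.150%, 0.171%, 0.275%, 0.387% and 0.488%. Each mouse counted equally, also with few cells. In these bins the mouse with the fewest cells had 45, 9, 4, 3 and 9 in control, and 181, 71, 24, 12 and 4 in ESCC. The strip share in control likewise included a mouse with 4 cells. The median cell held 952 UMIs on the Krt5 side and 1207 on the Krtdap side in control, and 3001 and 4119 in ESCC.

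**Figure D2:**
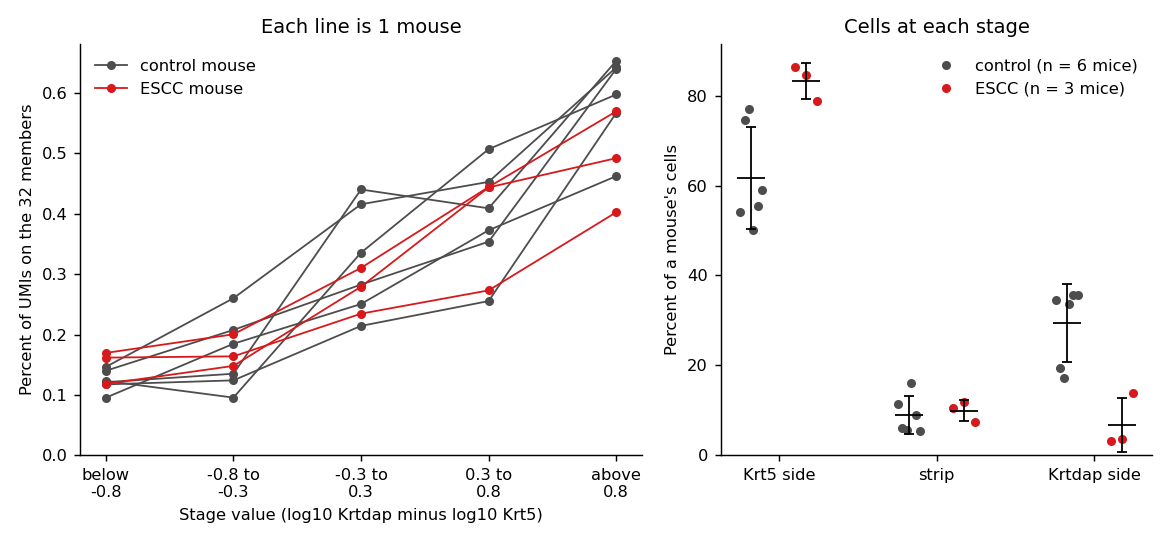
Left, percent of UMIs on the 32 genes (y axis) in 5 bins of the stage value D (x axis), 1 line per mouse; right, percent of a mouse's cells at each stage, with the mean and 1 SD. All 9 mice end higher in the Krtdap-most bin than in the Krt5-most bin, and the ESCC mice have 6.83% of their cells on the Krtdap side against 29.4% in control.

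Gene by gene, 26 of the 32 passed the filter on low counts in the fit by stage, with mouse as a block, and 24 of them were higher on the Krtdap side in control (edgeR's quasi-likelihood test, Benjamini-Hochberg adjusted p under 0.05). Of all 4590 genes tested, 22.8% were higher and 23.9% lower. Fads2 was the member that was lower, and Srebf1 did not pass the test. The median log2 fold change of the 26 was 2.41, against -0.05 over all genes tested. Members low on the Krt5 side could pass the filter through the Krtdap side alone. Without the filter, all 32 were tested and 27 were higher and 2 lower, against 7.8% and 9.63% of 14981 genes. With each shared barcode kept once, 23 were higher and 1 lower. Scaling by total UMIs moved the median of all genes to -0.29 and left 24 members higher and 1 lower.

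In the mevalonate steps, all 4 genes tested were higher on the Krtdap side. Hmgcs1 encodes the cytosolic HMG-CoA synthase and was the member with most UMIs in control. It stood at 143, 200.1 and 303 CPM (lowest, median and highest of the 6 mice, as in all control values below) on the Krt5 side and at 398, 693 and 773 on the Krtdap side, a log2 fold change of 1.56 (SE 0.16, adjusted p = 3.14e-15). The mice of both sides did not overlap. Mvk, the mevalonate kinase, moved from a median of 32.2 to 169.9 CPM with a log2 fold change of 2.35 (SE 0.31, adjusted p = 2.13e-10), Pmvk by 2.47 and Acat2, the cytosolic thiolase at the start of the route, by 2.21. Fdps, which makes farnesyl diphosphate and shares most of its transcript end with predicted genes, was not tested in this fit. No UMI of it was found among the 901857 of the Krt5 side and 32 were found on the Krtdap side, so its pooled CPM was at least 14.0-fold higher there, with a floor of 3 UMIs over the group. Mvd, the mevalonate diphosphate decarboxylase, had 2 UMIs on the Krt5 side and 28 on the Krtdap side, a ratio of pooled CPM of 18.4 (95% exact interval 4.63 to 159.2, counting error only).

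All 10 genes tested between squalene and cholesterol were higher on the Krtdap side. Sqle, the squalene epoxidase, stood at 0, 11.4 and 57.7 CPM on the Krt5 side and 106, 309 and 366 on the Krtdap side of the control mice. Its log2 fold change was 3.95 (SE 0.32, adjusted p = 2.28e-20). The highest Krt5-side mouse, mouse 1, stayed below the lowest Krtdap-side mouse. Msmo1, a C4-methyl sterol oxidase, was at 13.7, 31.3 and 62.5 CPM and 301, 519 and 571 CPM, a log2 fold change of 3.63 (SE 0.25, adjusted p = 1.31e-25). Cyp51, the lanosterol demethylase, was at 6.14, 32.3 and 82.4 CPM and 106, 392 and 615 CPM, a log2 fold change of 3.60 (SE 0.28, adjusted p = 4.82e-22). The ranges of these genes were separate on either side. Hsd17b7 (3.43), Lss, the lanosterol synthase (3.40), and Fdft1, the squalene synthase (3.21), had log2 fold changes above 3, whereas Ebp, the sterol isomerase, rose least, by 1.19 (SE 0.20, adjusted p = 3.74e-07). The ranges of Hsd17b7 overlapped between stages, because mouse 3 had 53.1 CPM on the Krtdap side. Sc5d, Dhcr7 and Nsdhl had log2 fold changes of 2.61, 2.15 and 1.79. Tm7sf2, a sterol reductase, was not tested, with 2 UMIs on the Krt5 side and 15 on the Krtdap side (ratio of pooled CPM 9.85, 95% exact interval 2.29 to 88.7).

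The regulators did not move alike. Srebf2, the SREBP gene best known for sterol synthesis, stood at 34.2, 68.2 and 115 CPM on the Krt5 side and at 172, 278 and 429 on the Krtdap side, a log2 fold change of 2.03 (SE 0.23, adjusted p = 8.28e-13). Srebf1, the SREBP gene best known for fatty acid synthesis, stood at 68.9, 114 and 139 CPM and 51.6, 148 and 229 CPM, and its ranges overlapped with a log2 fold change of 0.46 (SE 0.25, adjusted p = 0.117). Insig1, which retains SREBP, rose with a log2 fold change of 3.03 (SE 0.59, adjusted p = 7.33e-06) from a median of 7.46 to 66.4 CPM. Stard4, a carrier of sterol between membranes, rose with a log2 fold change of 3.31 (SE 0.40, adjusted p = 5.33e-12), although mouse 3 had no Stard4 UMI among its 12 Krtdap-side cells.

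Of the genes that supply acetyl-CoA and NADPH, Me1, the cytosolic malic enzyme, stood at 0, 26.0 and 42.4 CPM on the Krt5 side and 172, 365 and 444 CPM on the Krtdap side. The ranges were separate and the log2 fold change was 3.72 (SE 0.28, adjusted p = 5.54e-23). Acss2, which makes acetyl-CoA from acetate, had 2 UMIs in all on the Krt5 side and 57 on the Krtdap side, a ratio of pooled CPM of 37.4 (95% exact interval 9.89 to 316.4, counting error only; adjusted p = 1.32e-10 by edgeR). Acly, which makes it from citrate, rose with a log2 fold change of 1.70 (SE 0.33, adjusted p = 9e-06).

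The fatty acid genes held both directions. Elovl6, which elongates C16 fatty acids, stood at 135, 158 and 213 CPM on the Krt5 side and 106, 669 and 842 CPM on the Krtdap side, a log2 fold change of 1.89 (SE 0.17, adjusted p = 1.79e-17). Mouse 3 had the lowest Krtdap-side value and was the 1 mouse in which Elovl6 was not higher on that side. Fasn, the fatty acid synthase, and Scd2, a stearoyl-CoA desaturase, rose by 2.78 and 1.86, and Acaca, the acetyl-CoA carboxylase, by 2.16 on the log2 scale. Fads2, the desaturase that opens the route to long polyunsaturated fatty acids, ran the other way. It stood at 43.3, 69.1 and 107 CPM on the Krt5 side and at 0, 8.67 and 20.1 on the Krtdap side, with no overlap, and its log2 fold change was -2.53 (SE 0.54, adjusted p = 4.29e-05). Fads1, the other desaturase of that route, had 26 UMIs on the Krt5 side and 1 on the Krtdap side and was not tested in the filtered fit. The ratio of its pooled CPM, Krtdap side to Krt5 side, was 0.0505 (95% exact interval 0.00123 to 0.307). Scd1 had 5 and 3 UMIs, and Idi1 2 and 2, and the intervals of both ratios included 1.

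In the ESCC mice, 22 of the 26 genes tested were higher on the Krtdap side and 1 was lower, against 14.4% and 18.4% of all 4590 genes. The median log2 fold change of the 26 was 1.56, against -0.12 over all genes tested. Without the filter on low counts, 21 of 32 were higher and 2 lower (4.42% and 6.57% of all genes), and with each shared barcode kept once 23 were higher and 1 lower. Without ESCC mouse 8M, which held 44 of the 83 Krtdap-side cells, 15 were higher and Fads2 was no longer called. Sqle stood at 24.5, 56.5 and 49.2 CPM on the Krt5 side of mice 8M, 17F and 17M and at 227, 197 and 205 on the Krtdap side, a log2 fold change of 2.39 (SE 0.32, adjusted p = 3.54e-10). Cyp51 stood at 38.6, 92.3 and 78.6 CPM and 449, 442 and 257 CPM, a log2 fold change of 2.54 (SE 0.26, adjusted p = 1.37e-14). The mice of both stages were apart for these genes. Hsd17b7 (2.96, SE 0.29, adjusted p = 4.41e-16) and Fdft1 (2.66, SE 0.31, adjusted p = 5.55e-12) showed the highest fitted changes beside Acss2 (2.86, SE 0.64, adjusted p = 0.000166). Pmvk, Mvk, Stard4 and Lss had log2 fold changes of 2.49, 2.45, 2.41 and 2.40. Srebf1 (0.40, SE 0.28, adjusted p = 0.288), Acaca (0.78, SE 0.50, adjusted p = 0.235) and Elovl6 (0.45, SE 0.27, adjusted p = 0.195) did not pass the test. Fads2 was again lower, with 171 UMIs on the Krt5 side and 2 on the Krtdap side (ratio of pooled CPM 0.128, 95% exact interval 0.0154 to 0.470, adjusted p = 0.00125 by edgeR). Fads1 had 110 UMIs on the Krt5 side and none on the Krtdap side, which made it at least 3.35-fold lower there with the floor of 3 UMIs over the group. Fdps, Mvd and Tm7sf2, also untested, had 11, 8 and 13 UMIs on the Krt5 side and 2, 2 and 3 on the Krtdap side. Their ratios of pooled CPM were 1.99, 2.74 and 2.53. The 95% exact intervals (0.214 to 9.12, 0.283 to 13.7 and 0.462 to 9.20) all included 1.

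**Figure D3:**
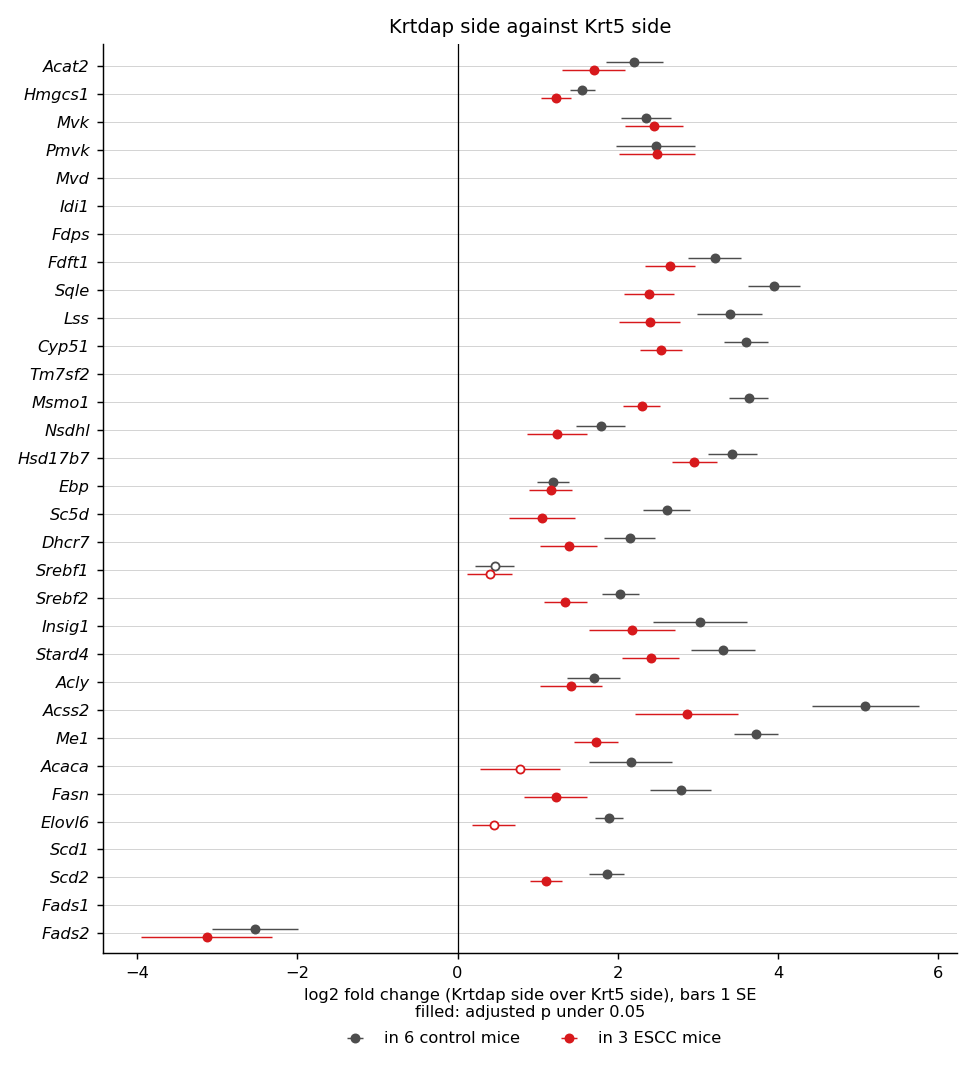
Log2 fold change of each gene (x axis) between the Krtdap side and the Krt5 side in 6 control mice and in 3 ESCC mice, with bars of 1 SE; filled points had an adjusted p under 0.05, and genes without a point did not pass the filter on low counts. Points lie to the right of 0 for every gene tested except Fads2, and Elovl6, Acaca and Srebf1 have open points in ESCC.

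Whether the stage difference itself differed between ESCC and control was tested as an interaction. It was smaller in ESCC for 3 of the 26 genes and larger for none, against 1.2% and 0.392% of all 4590 genes. These were Me1 (difference of log2 fold changes -1.99, SE 0.40, adjusted p = 0.000549), Elovl6 (-1.44, SE 0.31, adjusted p = 0.00151) and Msmo1 (-1.34, SE 0.36, adjusted p = 0.0242). Me1 stood at 54.1, 74.0 and 86.8 CPM on the Krt5 side of mice 8M, 17F and 17M, against 0, 26.0 and 42.4 (lowest, median and highest) in control. On the Krtdap side it stood at 305, 213 and 154 CPM, against 172, 365 and 444 in control. The ESCC mice were thus above the control mice on the Krt5 side, while the ranges overlapped on the Krtdap side. Elovl6 stood at 156, 142 and 105 CPM on the Krt5 side and 269, 131 and 103 on the Krtdap side of the same ESCC mice. It was higher on the Krtdap side in mouse 8M and slightly lower there in 17F and 17M, while the control medians were 158.3 and 668.8 CPM. Without the mouse block, and in DESeq2, 1 of the 3 was called, which was Me1. Msmo1 lost its call when any of 6 mice was left out (adjusted p between 0.0513 and 0.258, edgeR). With each shared barcode kept once, 2 of 26 were called, and leaving out ESCC mouse 8M gave 8.

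The promoters of the 32 genes were searched for what they share beyond their names. A RefSeq window of 300 bases (250 before to 50 after the start, build GRCm38.p6) was given for 25 of them, with 31 windows in all. CCAAT, the letters bound by NF-Y, was found on either strand in a window of 21 of the 25 genes (84.0%), against 41.1% of all 27025 genes with a window. GGGCGG, a GC box, was also found in 21 (84.0%), against 38.2%. The E-box CACGTG was in 4 (16.0%), against 8.09%, and the sterol response element form TCACNCCAC in 1 (4.00%), against 1.44%. The 4 motifs were searched on both strands, and none of them lies within another. The gene with TCACNCCAC was Hmgcs1, whose level rose with stage above. Its window is at chr13:119690101-119690400 on the plus strand, across the start of its first exon, and the capitals mark the motif, which begins 137 bases before the start. These are matches of letters, not binding sites.
Hmgcs1: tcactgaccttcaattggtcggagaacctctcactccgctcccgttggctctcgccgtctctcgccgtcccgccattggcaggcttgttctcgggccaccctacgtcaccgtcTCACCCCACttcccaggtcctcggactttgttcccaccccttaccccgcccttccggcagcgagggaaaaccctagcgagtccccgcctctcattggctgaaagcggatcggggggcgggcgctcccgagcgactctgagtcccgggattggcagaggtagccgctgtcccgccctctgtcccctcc

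ESCC was then compared with control over all epithelial cells, UMIs being summed per mouse. Of the 32 genes, 27 passed the filter on low counts, 14 were lower in ESCC and 1, Scd2, was higher. Over all 5866 genes tested, 16.8% were lower and 17.8% higher. The median log2 fold change of the 27 was -0.59, against 0.01 over all genes tested. The lower genes were 3 of the 5 tested in the mevalonate steps (Acat2, Mvk and Fdps) and 7 of 10 from squalene to cholesterol (Sqle, Lss, Cyp51, Msmo1, Nsdhl, Ebp and Sc5d). Among the others they were Srebf2, Acss2, Me1 and Elovl6. The count depended on scaling, with 9 lower under DESeq2's size factors and 19 with total UMIs, which set the median of all genes at 0.12 and -0.17. Of all 5866 genes, 761 and 1437 were lower under these scalings, against 985 in the main fit. DESeq2 itself called 7 lower, and 735 of all 5865 genes. Without the filter on low counts, all 32 were tested and 13 were lower and 2 higher, against 7.26% and 10.9% of 15110 genes. With each shared barcode kept once it was 13. Leaving out single mice gave 7 to 17, with 7 without ESCC mouse 17M, 9 without 17F, and 8 without control mouse 1, 4 or 6. Over all genes tested, 679 of 5985 were lower without 17M and 653 of 5977 without 17F. Without control mouse 1, 4 or 6 these were 788 of 5322, 798 of 5356 and 798 of 5330.

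Fdps stood at 10.7, 19.5 and 36.6 CPM (lowest, median and highest of 6 control mice) and at 8.48, 5.17 and 4.34 in ESCC mice 8M, 17F and 17M. The groups did not overlap and the log2 fold change was -1.95 (SE 0.46, adjusted p = 0.00144). Sc5d, the sterol desaturase, stood at 46.7, 117 and 153 CPM in control and 60.4, 52.4 and 39.0 in ESCC, a log2 fold change of -1.23 (SE 0.23, adjusted p = 0.000117), and control mouse 3 lay among the ESCC mice. Acss2 was at 18.7, 36.1 and 61.8 CPM in control and 15.9, 17.0 and 7.44 in ESCC, without overlap, a log2 fold change of -1.66 (SE 0.35, adjusted p = 0.000448). Of the regulators, Srebf2 differed by -0.53 (SE 0.21, adjusted p = 0.0482) on the log2 scale, while Srebf1 (0.12, SE 0.19, adjusted p = 0.678) and Insig1 (-0.34, SE 0.33, adjusted p = 0.454) did not pass the test.

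Elovl6 was at 168, 408 and 479 CPM in control and 191, 164 and 117 in ESCC, a log2 fold change of -1.30 (SE 0.22, adjusted p = 2.27e-05). All but the lowest control mouse lay above the ESCC mice. Scd2 was at 103, 208 and 235 CPM in control and 198, 416 and 359 in ESCC, a log2 fold change of 0.70 (SE 0.20, adjusted p = 0.00703). Mouse 8M lay within the control range, and Scd2 was not called without mouse 17F or 17M. Mvk had a log2 fold change of -1.12, Sqle -0.92, Ebp -0.86, Nsdhl -0.80 and Lss -0.72. The remaining called genes, Me1, Msmo1, Cyp51 and Acat2, lay between -0.63 and -0.59. Fasn, Hmgcs1, Acaca and Fads2 had log2 fold changes of -0.22, -0.36, 0.22 and 0.03 and did not pass the test.

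In these sums over all cells, fewer Krtdap-side cells and less RNA of a gene per cell cannot be told apart, and Krtdap-side cells were 29.4% of control cells and 6.83% of ESCC cells. The comparison was therefore repeated within each stage. On the Krt5 side, 9 of the 32 genes passed the filter, 2 were higher in ESCC and none was lower by edgeR or DESeq2 (4 of the 9 had an unadjusted p under 0.05 in either direction). Among all 4134 genes tested there, 16.2% were higher and 14.4% lower. Scd2 was at 11.9, 80.9 and 120.2 CPM in control and 121, 331 and 307 in ESCC mice 8M, 17F and 17M, a log2 fold change of 1.57 (SE 0.30, adjusted p = 0.000383). The ESCC mice were all above the control mice. Msmo1 was at 13.7, 31.3 and 62.5 CPM in control and 50.2, 131 and 86.1 in ESCC, a log2 fold change of 1.21 (SE 0.34, adjusted p = 0.0104), and mouse 8M lay within the control range. Hmgcs1 (0.19, SE 0.19, adjusted p = 0.461), Srebf1 (0.22), Srebf2 (0.42), Cyp51 (1.02, SE 0.41, adjusted p = 0.0638), Ebp (-0.49), Fads2 (-0.36) and Elovl6 (-0.35) did not pass the test. With no filter, 8 of 32 were higher and none lower, against 8.93% and 4.71% of 14533 genes. Scaling by total UMIs, which moved the median of all genes to -0.25, left 2 higher and made Ebp and Elovl6 lower. Leaving out ESCC mouse 8M gave 5 higher and 1 lower, and leaving out 17F gave 1 higher.

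On the Krtdap side 23 of the 32 genes passed the filter, and 2 were lower and 1 higher in ESCC, against 8.61% and 13.9% of all 2497 genes tested. The median log2 fold change of the 23 was -0.20, beside -0.03 over all genes. Elovl6 was at 106, 669 and 842 CPM in control and 269, 131 and 103 in ESCC, a log2 fold change of -1.64 (SE 0.35, adjusted p = 0.00116). Sc5d was at 53.1, 205 and 337 CPM in control and 114, 32.8 and 64.2 in ESCC, a log2 fold change of -1.34 (SE 0.37, adjusted p = 0.00957). For both genes the ranges overlapped through control mouse 3, which had 12 cells there. Fdps and Mvd were not among the calls of the filtered fit, but their ESCC mice lay below the control mice without overlap. Fdps was at 23.4, 50.4 and 85.9 CPM in control, and Mvd at 26.6, 47.8 and 66.9. Each was at 12.0, 0 and 0 CPM in ESCC mice 8M, 17F and 17M, from 2 UMIs in all. Of the 32 genes, these 2 lay below control without overlap here and none lay above. How many of all genes did so was not counted. On the Krt5 side Fdps lay above the control mice in every ESCC mouse, from 11 UMIs among 4074323, against 0 among 901857 in control. Scd2 was again higher, at 159, 314 and 361 CPM in control and 431, 672 and 359 in ESCC, a log2 fold change of 0.73 (SE 0.24, adjusted p = 0.031), a call that was lost with total UMIs, with DESeq2, without the filter and without any of 4 mice (ESCC 17F, control 1, 5 or 6). Without mouse 17F, 1 was lower. Without the filter, 4 of the 32 were lower and none higher, against 2.11% and 3.65% of 11684 genes (6 of the 32 had an unadjusted p under 0.05 in either direction, and DESeq2 called none higher). In the strip, 4 genes were tested and Elovl6 was lower (-1.10, SE 0.34, adjusted p = 0.0147), with 15.0% of 1022 genes lower there. Hmgcs1 (-0.30), Srebf2 (-0.44) and Scd2 (0.72) were not called, and without ESCC mouse 17M neither was Elovl6.

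**Figure D4:**
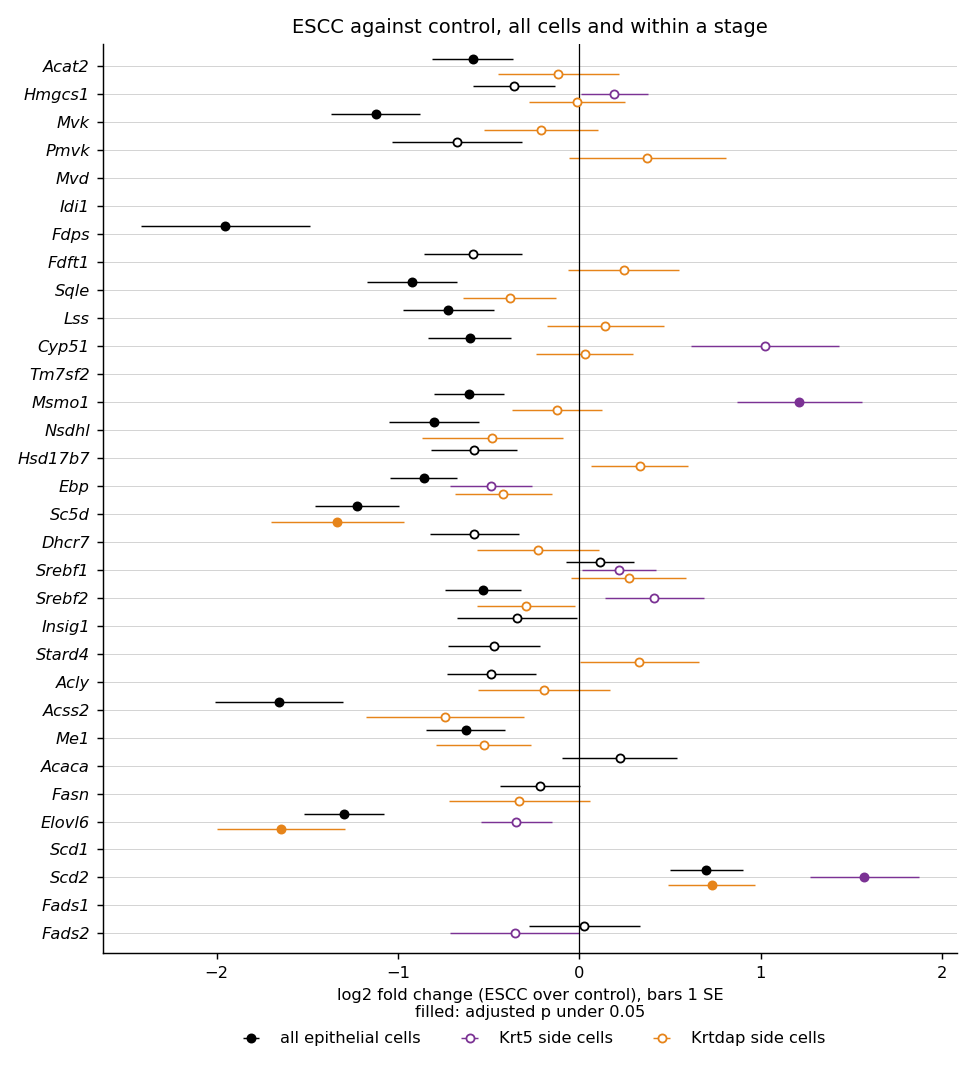
Log2 fold change of ESCC over control (x axis) for each gene over all epithelial cells, among Krt5-side cells and among Krtdap-side cells, with bars of 1 SE; filled points had an adjusted p under 0.05. Over all cells 14 genes lie to the left with filled points, within a stage Elovl6 and Sc5d do on the Krtdap side, and Scd2 lies to the right in all 3 comparisons.

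EoE was compared with control in the same way, at the far lower depth of EoE and with the same control mice as above. Of the 27 genes that passed the filter, 6 were higher and 3 lower in EoE, against 9.48% and 25.0% of all 5866 genes tested. The median log2 fold change of the 27 was 0.46, against -0.75 over all genes tested. Without the filter on low counts the median of the 32 was 0.04, with 16 above 0 and 16 below, against -1.22 over all genes. With all deposited cells it was 0.12 over the 28 tested, against -0.31. Insig1 stood at 16.8, 38.2 and 47.0 CPM (lowest, median and highest) in control and at 278, 354, 195 and 76.7 CPM in EoE mice 9, 10, 11 and 12, of which 9 and 10 were young and 11 and 12 old. The EoE mice were all above the control mice, and the log2 fold change was 3.17 (SE 0.44, adjusted p = 1.65e-06). Scd2 stood at 639, 620.2, 326 and 345 CPM in the same EoE mice, against 103, 208 and 235 in control, and was likewise without overlap, with a log2 fold change of 1.73 (SE 0.28, adjusted p = 1.5e-05). Srebf2 stood at 639, 465, 130.3 and 192 CPM in EoE, against 112, 188 and 254 in control, a log2 fold change of 1.46 (SE 0.29, adjusted p = 0.000314), with mice 11 and 12 inside the control range. In these TMM-scaled CPM of Srebf2, Scd2 and Insig1, both young EoE mice were above both old ones. This split by age was not tested with 2 mice each, and it depended on scaling. The TMM factors were 1.13 and 1.08 in mice 9 and 10, and 2.46 and 1.45 in mice 11 and 12. Mouse 11 had 5 UMIs of Scd2 and 3 of Insig1 among its 6245. In CPM without these factors it was the highest EoE mouse for both genes, while the order for Srebf2 held.

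From squalene to cholesterol, 3 of the 10 genes tested were higher in EoE and none was lower. Cyp51 stood at 556, 664, 65.1 and 383 CPM in EoE mice 9, 10, 11 and 12, against 65.4, 189.8 and 283 in control, a log2 fold change of 1.65 (SE 0.30, adjusted p = 9.88e-05). Hsd17b7 stood at 472, 443, 130.3 and 192 CPM, against 28.0, 127 and 187, a log2 fold change of 1.70 (SE 0.34, adjusted p = 0.000282). Mouse 11, with 6245 UMIs, was the lowest EoE mouse for both, just under the lowest control mouse for Cyp51 and inside the control range for Hsd17b7, and the other 3 EoE mice were above the control mice. Sc5d was higher by 1.08 (SE 0.38, adjusted p = 0.0286) on the log2 scale. Hmgcs1 (0.71, SE 0.29, adjusted p = 0.0523), Msmo1 (0.72, SE 0.30, adjusted p = 0.0584) and Sqle (0.71, SE 0.42, adjusted p = 0.195) did not pass the test.

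Of the 9 calls, Sc5d was lost without EoE mouse 9, 10 or 11, Acat2 without mouse 9 or 12, and Fads2 without any single EoE mouse.

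The 3 lower genes rested on 0 or 1 UMI in EoE. Srebf1 had 1 UMI in EoE and 204 in control, a ratio of pooled CPM of 0.0873 (95% exact interval 0.00220 to 0.492, adjusted p = 0.000831 by edgeR). Acat2 had 1 and 122, a ratio of 0.146 (95% exact interval 0.00367 to 0.8286, adjusted p = 0.0181). Fads2 had no UMI in EoE and 75 in control, which made it at least 1.40-fold lower in EoE with the floor of 3 UMIs over the group (adjusted p = 0.0447). With all deposited cells, Srebf1 and Acat2 stayed lower, with log2 fold changes of -3.98 (SE 0.59, adjusted p = 4.26e-06) and -2.62 (SE 0.60, adjusted p = 0.000738), and Fads2 turned to 1.04 (SE 0.45, adjusted p = 0.0555), which did not pass the test. In that fit 7 genes were higher (21.4% of all 5971 genes) and 7 lower (29.3%). Mvk, Fdft1, Nsdhl, Ebp and Elovl6 joined the lower genes, Fdps and Hmgcs1 the higher, and Sc5d was no longer called. The 10 genes with 3 or fewer UMIs in EoE were Acat2, Mvk, Mvd, Tm7sf2, Nsdhl, Srebf1, Acss2, Scd1, Fads1 and Fads2, and among the 8 with a UMI the interval of the ratio to control included 1 for 5. Without the filter on low counts, 6 of the 32 genes were higher and 6 lower, against 3.14% and 12.4% of 15110 genes.

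The EoE cells also differed in their stage markers. The 8 basal markers summed to between 1726 and 3203 CPM in the EoE mice, against 12718 to 19428 in control. The 10 suprabasal and superficial markers summed to between 117015 and 179664 CPM, against 30610 to 63320, with Cdsn at 0 in EoE. Their part in the difference between EoE and control was not tested. The summed share of the 32 genes in EoE, 0.530%, may be set beside the 0.549% of Krtdap-side control cells and the 0.306% of all control cells. Of other cell types, endothelial markers summed to between 71.6 and 278 CPM in the EoE mice, from 12 UMIs of 1 of the 7 markers with the other 6 at 0, against at most 9.94 in control and 8.87 in ESCC. Fibroblast markers summed to at most 283 CPM in EoE, 369 in control and 119 in ESCC. Markers of adipocytes (2 of 6 in the counts) had no UMI in EoE or control and 17 in ESCC, and those of sebaceous cells (3 of 6 in the counts) summed to at most 31.4 CPM in any EoE mouse, 18.0 in control and 6.91 in ESCC. Immune markers (11 of 13 in the counts) were at 0 in EoE, at most 24.5 CPM in a control mouse and between 66.8 and 86.5 CPM in ESCC. All these sums are over the cells used. Cells called non-epithelial by immune, fibroblast, endothelial and muscle markers (2 in EoE, 7 in control, 22 in ESCC) had been removed, which lowers such sums. The part of these cell types was not tested.

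**Figure D5:**
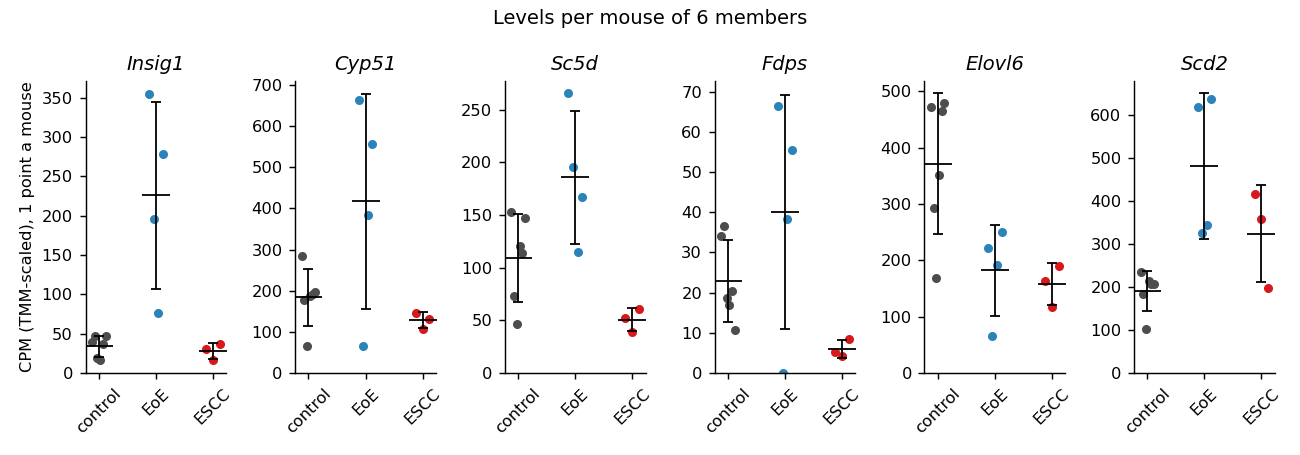
Levels in CPM (y axis, TMM-scaled) of 6 of the genes in each mouse of the control, EoE and ESCC groups; points are mice, horizontal marks the mean and bars 1 SD. Insig1 and Scd2 lie higher in every EoE mouse than in any control mouse, Fdps lies lower in every ESCC mouse than in any control mouse, and EoE mouse 11 is the lowest of its group for Cyp51, Fdps and Elovl6.

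Set directly against ESCC, 11 of the 27 genes were higher and 2 lower in EoE, against 11.7% and 29.9% of all 5866 genes. The median log2 fold change of the 27 was 1.03, beside -0.81 over all genes. Insig1 stood between 16.7 and 37.1 CPM in the 3 ESCC mice, below the EoE mice above, with a log2 fold change of 3.51 (SE 0.44, adjusted p = 1.87e-07). Fdps had 55.6, 66.4, 0 and 38.3 CPM in EoE mice 9, 10, 11 and 12, against 8.48, 5.17 and 4.34 in ESCC, with a log2 fold change of 3.37 (SE 0.88, adjusted p = 0.00333), although mouse 11 had none. This rested on 6 UMIs in EoE and 22 in ESCC, and the call was not kept under every setting. Sc5d (2.30, SE 0.42, adjusted p = 6.12e-05), Hsd17b7 (2.28, SE 0.36, adjusted p = 7.34e-06) and Cyp51 (2.25, SE 0.32, adjusted p = 1.83e-06) followed. Srebf2, Sqle, Msmo1, Me1, Hmgcs1 and Scd2 were higher by between 1.03 and 1.99 on the log2 scale. Srebf1 was lower, with 1 UMI in EoE and 576 in ESCC (ratio of pooled CPM 0.0900, 95% exact interval 0.00228 to 0.504). Fads2 was the other lower gene, at least 1.21-fold by the floor. With all deposited cells it was higher in EoE (1.02, SE 0.44, adjusted p = 0.0497), and with only both groups in the fit 7 genes were higher and none lower. Leaving out EoE mouse 10 also gave 7 higher, where 453 of all 5897 genes tested were higher. Leaving out any single EoE mouse gave 1 lower. The basal markers, at 1726 to 3203 CPM in EoE, summed to between 18544 and 28682 in ESCC, and the suprabasal and superficial markers, at 117015 to 179664 CPM in EoE, to between 6948 and 17458. Their part in this difference was not tested either.

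Age was compared among the control mice, 3 old against 3 young. Of the 25 genes tested none was called in either direction, and none had an unadjusted p under 0.05, by edgeR, where 0.0777% of all 5149 genes were higher and 0.0194% lower. DESeq2 called none either. The median log2 fold change of the 25, old over young, was -0.28, against -0.004 over all genes tested, with 19 below 0 and 6 above. The 3 genes with most UMIs over all mice were Hmgcs1 (-0.39, SE 0.23, adjusted p = 0.999), Scd2 (-0.17, SE 0.24, adjusted p = 0.999) and Elovl6 (-0.28, SE 0.26, adjusted p = 0.999), given as log2 fold changes of old over young. The SEs bound what could be seen, and do not show that the ages were alike.

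Of the other genes of the pathway, 4 lists were read in the same fits. In sterol uptake, sensing and other sterol synthesis, 12 of 17 were tested by stage in control, with 7 higher on the Krtdap side and 1 lower, against 22.8% and 23.9% of all 4590 genes. Among the higher genes was Aacs, which activates acetoacetate, with a log2 fold change of 3.13 (SE 0.36, adjusted p = 6.98e-13). In ESCC against control over all cells, 15 were tested, and 1 was lower and 2 were higher, against 16.8% and 17.8% of all 5866 genes, shares above those of the list. The higher genes were Mbtps1 (0.99, SE 0.23, adjusted p = 0.00111) and Scap (0.84, SE 0.22, adjusted p = 0.00299), which cut and escort SREBP. The export and LXR list differed in direction by stage. Of 5 tested, 1 was higher and 2 were lower, beside the same 22.8% and 23.9%. Cyp27a1, a sterol hydroxylase, was higher (3.57, SE 0.59, adjusted p = 1.79e-07), and Abca1, the cholesterol exporter (-3.40, SE 0.67, adjusted p = 1.04e-05), and Apoe (-2.79, SE 0.29, adjusted p = 1.26e-14) were lower on the Krtdap side. In ESCC over all cells, 2 of 5 were lower, against 16.8% of all genes, namely Cyp27a1 (-2.48, SE 0.50, adjusted p = 0.000257) and Apoe (-1.11, SE 0.27, adjusted p = 0.00177).

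In the list of other fatty acid synthesis, elongation and activation genes, 12 of 22 were tested by stage in control, with 10 higher and 1 lower on the Krtdap side, against 22.8% and 23.9% of all 4590 genes. The largest change was that of Elovl4, which makes very long chain fatty acids (log2 fold change 6.85, SE 0.32, adjusted p = 4.12e-38), followed by Acsl1, a fatty acyl-CoA synthetase (3.45, SE 0.25, adjusted p = 3.66e-23), and Elovl7 (2.42, SE 0.19, adjusted p = 3.59e-21). Acsl4 was lower (-2.25, SE 0.43, adjusted p = 4.71e-06). In ESCC over all cells 7 of 13 were lower, against 16.8% of all 5866 genes, with the largest changes in Acsl1 (-2.23, SE 0.24, adjusted p = 8.13e-09), Elovl4 (-1.60, SE 0.33, adjusted p = 0.000306), Acsl3 (-1.47, SE 0.36, adjusted p = 0.00184) and Mid1ip1 (-0.88, SE 0.22, adjusted p = 0.00248). Among 18 fatty acid oxidation genes, 13 were tested by stage in control, with 5 higher and 1 lower beside the same 22.8% and 23.9%. The higher genes included Hadh (1.18, SE 0.13, adjusted p = 9.05e-14) and Acadm (0.82, SE 0.19, adjusted p = 0.000229), and the lower gene was Decr1 (-1.75, SE 0.43, adjusted p = 0.000401). In ESCC over all cells 11 of 15 were lower and 2 higher, against 16.8% and 17.8% of all genes. The lower genes included Decr1 (-1.72, SE 0.32, adjusted p = 0.000117), Acadm (-1.60, SE 0.21, adjusted p = 4.44e-07) and Acaa2 (-1.52, SE 0.24, adjusted p = 8.45e-06), and Hadhb (2.06, SE 0.26, adjusted p = 1.45e-07) was the higher gene with the larger change. On the Krt5 side alone, 8 of 12 oxidation genes tested were lower in ESCC and 1 higher, against 14.4% and 16.2% of all 4134 genes.

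Some of the 32 genes could not be counted cleanly. More than 10% of the 31-base words in the last 300 bases of transcripts occurred in another gene for 7 of them. These were Fdps (66.9%), Idi1 (47.8%), Fdft1 (32.7%), Me1 (27.4%), Acaca (24.7%), Acat2 (24.2%) and Elovl6 (16.2%), mostly with predicted genes and, for Acat2, with Acat3. Scd1 shared 7.28% with its paralogs. How reads that match several genes were counted is not given in the sources used here, so values of these genes are uncertain. Exons of Fdft1, Cyp51, Srebf1 and Acss2 overlap coding genes on the opposite strand (Ctsb, Akap9, Rai1, and Gss with Ggt7), and those of Fdps and Tm7sf2 overlap Gm43738 and Vps51 on the same strand.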

How the data were processed

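Raw UMI counts per gene and cell were deposited, 1500 cells per condition. The authors made these counts with UMI-tools v1.0.0, STAR v2.7.3 on the GENCODE M23 sequence of GRCm38, featureCounts and Seurat v3.2.2, after filters on cells. Here, cells within the limits of the study (250 to 3500 genes, 100 to 9500 UMIs) and not called non-epithelial from fixed marker lists were kept, and doublets were not called again. UMIs were summed per mouse, or per mouse and stage, both libraries of a mouse counting as 1 replicate. Stage sums under 10 cells were left out of the fits and CPM but kept in the summed shares. Counts were tested with edgeR 4.0.16 (TMM, filterByExpr, quasi-likelihood F test) in R 4.3.3, with Benjamini-Hochberg adjustment over all genes tested and a threshold of 0.05, and the method was tested on simulated counts. The mouse was a block in the stage fits, since each animal gave every stage. SEs are the log2 fold change divided by the square root of F. CPM are TMM-scaled unless pooled, and intervals and floors cover counting error only. Alternatives were DESeq2 1.42.0, other scalings, no filter, other stage limits, all deposited cells and leaving out each mouse. Keeping each shared barcode once was chosen after seeing the data. Per-mouse values were given for up to 10 genes per comparison, those past the threshold with the largest change, and some genes of the other pathway lists are not reported here. The genes and lists were chosen with earlier results of these data known. Promoters are RefSeq windows of GRCm38.p6, and Fdps, Fdft1, Sqle, Stard4, Scd1, Scd2 and Fads1 had no match. Gene overlaps and shared words were computed from GENCODE M21.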

Additional observations from a re-analysis of the deposited data

Results flagged for a closer look

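A mouse lay far from the others of its group in 6 of 51 groups of values, by Dixon's criterion at 95%, which chance alone meets in about 1 of 20 groups. In EoE, Srebf1 was at 27.8 CPM in mouse 9 and Acat2 at 22.1 CPM in mouse 10, in each case the 1 UMI found in the group. With the other EoE mice at 0, any single UMI meets the criterion, so the rate of 1 of 20 does not apply to these flags. On the Krt5 side of control mice, Sqle was at 57.7 CPM in mouse 1 and Fdft1 at 54.9 CPM in mouse 2, above the other 5 mice. On the Krtdap side of control mice, Lss was at 203 CPM in mouse 6, and Stard4 was at 0 in mouse 3, which had 12 cells there.

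The difference between stages was not the same in ESCC and control for 3 genes, by the interaction test of edgeR. The log2 fold change of the Krtdap side over the Krt5 side was lower in ESCC by a difference of -1.99 for Me1, -1.44 for Elovl6 and -1.34 for Msmo1.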

How the results depend on the processing

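Over the named genes, 1509 values under other settings kept their direction and their side of the threshold. A further 125 kept the direction and lost the call, and 2 reversed, both Fads2 in EoE with all deposited cells (1.04 against control, 1.02 against ESCC). Called genes that a setting's filter removed are not in this tally. With only both groups in the fit of EoE against ESCC, 7 of the 11 higher and 2 lower genes were tested. On the Krt5 side with a strip of 0.5, 1 of 2 called genes was tested. Causes were not tested, and the number of calls over all genes also moved with these settings. In ESCC against control, the lower genes numbered 9 with size factors, 7 with DESeq2 and 7 to 17 with single mice left out, and the higher genes 2 without the filter and 0 to 1 with mice left out. In EoE against control, the lower genes numbered 7 with all deposited cells, 6 without the filter, 5 with size factors and 1 to 3 with mice left out. In EoE against ESCC, the higher genes numbered 7 with only both groups in the fit and 7 to 12 with mice left out. The lower genes numbered 0 with only both groups, where Srebf1 and Fads2 were not tested. They numbered 1 with total UMIs and 1 to 2 with mice left out. The lower genes by stage numbered 2 without the filter in control and in ESCC, and 0 to 1 in ESCC with mice left out. Without the mouse block, the counts by stage stayed at 24 higher and 1 lower in control and at 22 and 1 in ESCC. The interaction gave 1 gene without the block, 1 in DESeq2, 6 with cells thinned to 500 UMIs for staging and 2 to 8 with mice left out. On the Krt5 side, the higher genes in ESCC numbered 1 with a strip of 0.5, 8 without the filter and 1 to 5 with mice left out, and the lower genes 2 with total UMIs and 0 to 1 with mice left out. In the strip, the higher genes numbered 1 with thinned cells and 0 to 1 with mice left out, and the lower genes 2 with a strip of 0.5, 0 with thinned cells, 0 without the filter and 0 to 1 with mice left out. On the Krtdap side, the higher genes numbered 0 with thinned cells, without the filter, with total UMIs and with DESeq2, and 0 to 1 with mice left out, and the lower genes 4 with thinned cells, 4 without the filter and 1 to 2 with mice left out. With all deposited cells the summed share was 0.360% in EoE, 0.305% in control and 0.196% in ESCC. Without mitochondrial and ribosomal protein genes it was 0.545% in EoE, 0.329% in control and 0.240% in ESCC. In this setting the control mice lay between 0.220% and 0.401% and the ESCC mice between 0.215% and 0.256%. Depth limits EoE most, where 10 of the 32 genes had 3 or fewer UMIs. The condition groups share no replicate numbers, so no pairing between conditions was made.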
